A study of Mus musculus with 14 samples.

Results

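Mast cells labelled as bone marrow mast cells of MC903-treated mice were compared with resident mast cells of untreated mice. The comparison used 9 of the 14 libraries of the series, chosen by the group in each library's label: 4 of bone marrow cells (libraries 11, 13, 14 and 15) and 5 of untreated resident cells (libraries 1 to 5). Each library was made from a small pool of mast cells sorted from both ears of mice. MC903 is calcipotriol, a vitamin D analogue that causes inflammation like that of atopic dermatitis when it is put on mouse skin. The group labelled bone marrow is taken here to be the integrin β7-positive cells of the sorting protocol, as no other sorted population besides resident cells is described there. Treatment and cell population therefore differed together between the groups, and their parts in any difference cannot be told apart. The 5 libraries of resident cells from MC903-treated mice are given beside some results only as values. Strain, sex, age and the number of mice were not given in the sources used here, and nothing says that the libraries came from separate mice, so p-values measure the spread between these libraries, which may be technical. As these are pools of cells, fewer cells with a transcript and less of it per cell cannot be told apart.

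Mast cells are long-lived immune cells that carry the growth factor receptor KIT and the high-affinity IgE receptor, and they store histamine and proteases in granules on a scaffold of serglycin and heparin. In the mouse, mast cells of the skin belong to the connective tissue type, whose granules hold tryptases, carboxypeptidase A3 and the chymases Mcpt4 and Mcpt5 (the product of Cma1). Mast cells of the mucosal type, known from the inflamed gut and airway, make the chymases Mcpt1 and Mcpt2 and arise from bone marrow progenitors that home with the integrin α4β7.

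The labels were checked with the mast cell markers. Kit was at 759 to 2025 CPM (counts scaled to the library total and the TMM normalization factor) in the 9 libraries, Ms4a2 at 529 to 2742 CPM, Cpa3 at 18730 to 41800 CPM and Hdc at 5454 to 13050 CPM. Every library of both groups therefore held the defining mast cell transcripts. Itgb7, which encodes the integrin β7 chain of the sort, was at 414, 458, 657 and 395 CPM in bone marrow libraries 11, 13, 14 and 15 and at 258 to 315 CPM in untreated resident libraries. The groups did not overlap in it, but the resident cells were not free of its transcript. Its edgeR call was lost in 5 of 9 leave-one-out fits (adjusted p up to 0.134). Because it was a sorting marker, its difference is a check and not a result.

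Total counts ranged from 17706764 to 27068993 in untreated resident libraries and from 19978811 to 31781926 in bone marrow libraries. The mitochondrial share of counts was 1.22% to 1.70% in untreated and 2.14% to 4.24% in bone marrow libraries, without overlap, and its part in the results was not tested. Untreated libraries had 21874 to 25244 genes with at least 1 count, more than bone marrow libraries 11, 13 and 14. Bone marrow library 15 stood apart from the other 3, with 32814 genes with at least 1 count against 16025 to 19817, and with 82.1 on the second principal component against -36.8 to -17.8. It also held transcripts of other cells. The summed level of 12 marker genes of macrophages and dendritic cells was 12400 CPM in library 15, against 57.3 to 138 CPM in untreated resident libraries. Bone marrow libraries 11, 13 and 14 had 172, 80.7 and 346 CPM, so libraries 11 and 14 also lay above the untreated range. In library 15, the macrophage gene Lyz2 was at 4817 CPM, C1qb at 2252 CPM, Csf1r at 1100.0 CPM and Adgre1 at 341 CPM. In libraries 11, 13 and 14, C1qb did not exceed 3.92 CPM. The 8 T cell markers summed to 4.09 to 83.8 CPM in bone marrow cells and 0.0748 to 6.72 CPM in untreated cells. Libraries 11, 13, 14 and 15 had sums of 4.09, 83.8, 45.2 and 39.3 CPM, the last 3 above every untreated library. Cd4 was at 79.9 CPM in library 13, where Cd3e was at 0, and Cd3d was at 16.8 CPM in library 14. Markers of keratinocytes, fibroblasts, melanocytes, B cells and eosinophils summed to at most 12.2 CPM in any of the 9 libraries. Endothelial markers reached 39.8 CPM and were mostly Pecam1. They summed to 7.44 to 39.8 CPM in bone marrow libraries and to 0.284 to 6.66 CPM in untreated libraries, without overlap. Neutrophil markers reached 74.6 CPM in library 15. However, 4 of the 7 listed (Camp, Ngp, Retnlg and S100a9) had no count in any bone marrow library. The basophil genes Mcpt8 and Prss34 summed to 46.5 to 981 CPM in bone marrow cells and 9.5 to 37.2 CPM in untreated cells. In libraries 11, 13, 14 and 15 these sums were 981, 221, 83.6 and 46.5 CPM. Mcpt8 alone was at 976, 205, 83.2 and 46.5 CPM there, so little of the sum was Prss34. The part of these other cells in the results was not tested, and counts of gene lists are given with and without library 15.

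**Figure D1:**
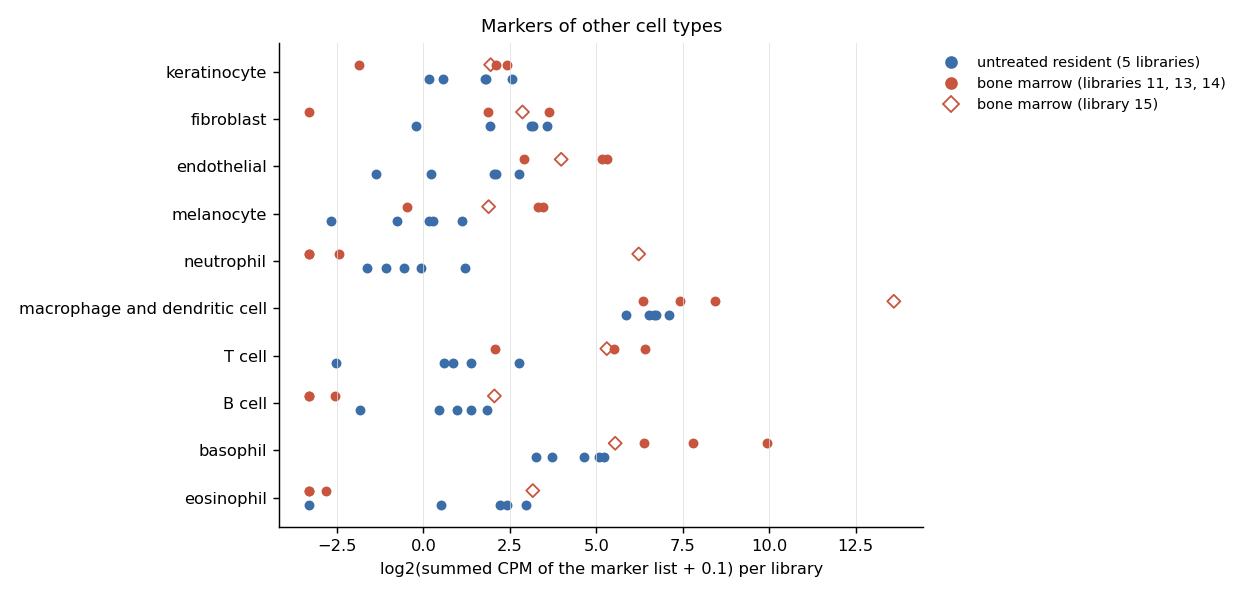
Summed level of marker lists of other cell types in each library, as log2(CPM + 0.1) on the horizontal axis, with 1 point per library (blue, untreated resident; red, bone marrow libraries 11, 13 and 14; open diamond, bone marrow library 15). Library 15 lies apart from all others in macrophage and dendritic cell markers (12400 CPM) and in neutrophil markers (74.6 CPM). The listed neutrophil genes Camp, Ngp, Retnlg and S100a9 had no count in any bone marrow library.

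Of 21014 genes tested, 1443 were called at a Benjamini-Hochberg adjusted p-value under 0.05 in edgeR's quasi-likelihood test, which is 6.87% of the genes tested. Bone marrow cells had higher levels of 734 of these (3.49%) and lower levels of 709 (3.37%). The difference was at least 2-fold for 1201 of them, and 1353 were protein-coding. CPM did not overlap between the 4 and the 5 libraries for 2187 genes tested (10.4%), with 1078 higher (5.13%) and 1109 lower (5.28%), and 1213 of them were called. Without library 15, 1624 genes passed (7.73%), 752 of them higher (3.58%) and 872 lower (4.15%), and 1226 of the 1443 genes were called in the same direction. The median log2 fold change over all genes tested was -0.14 with library 15 and -0.44 without it, while among the 8240 genes that averaged 10 CPM or more it was 0.00 and 0.01. The plot of fold changes with and without library 15 shows genes such as Cd74 and Ccl9 below the diagonal, where the increase was smaller without library 15, and Scin, Mcpt2 and Gzmb close to it.

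**Figure D2:**
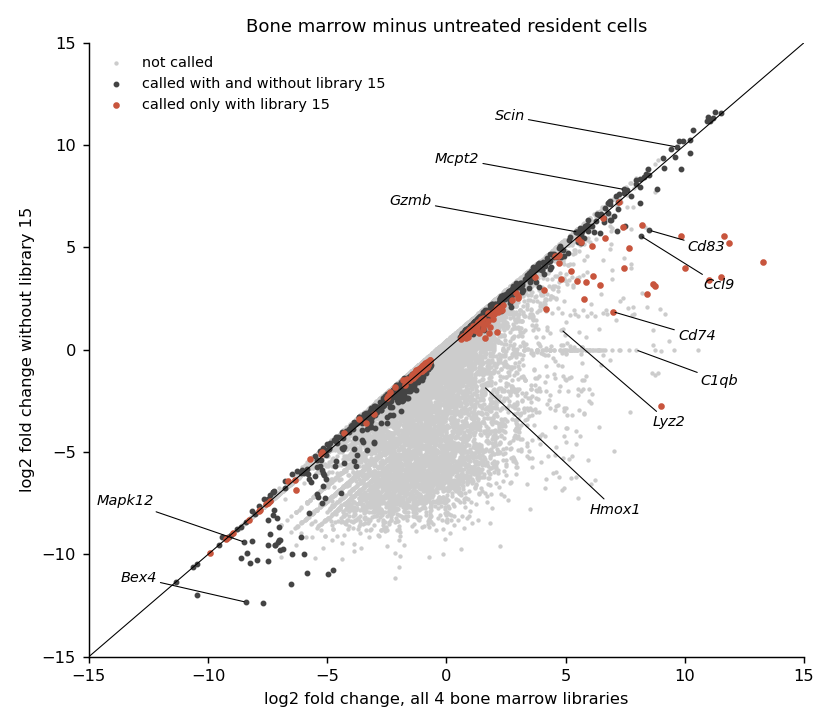
Log2 fold change of bone marrow over untreated resident cells for each of 21014 genes, with all 4 bone marrow libraries (horizontal axis) and without library 15 (vertical axis). Grey points were not called, black points were called both ways (1226 with the same sign) and red points only with library 15. Points below the diagonal on the right had a smaller increase without library 15.

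The plot of calls by gene list shows the share of each list that was higher or lower. Higher calls were 3 of 6 mucosal type, 7 of 20 adhesion, 6 of 16 actin and 7 of 20 proliferation genes. The adhesion calls include the sorting marker Itgb7. Lower calls were 12 of 22 immediate early, 4 of 11 connective tissue type, 4 of 11 heat shock and 6 of 19 oxidative stress genes. The shares over all genes tested were 3.49% higher and 3.37% lower. Of the 18 genes listed for signalling below KIT and the IgE receptor, 1 was called with and without library 15 (the kinase gene Fyn), a share of 5.6% near the 6.87% over all genes tested.

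**Figure D3:**
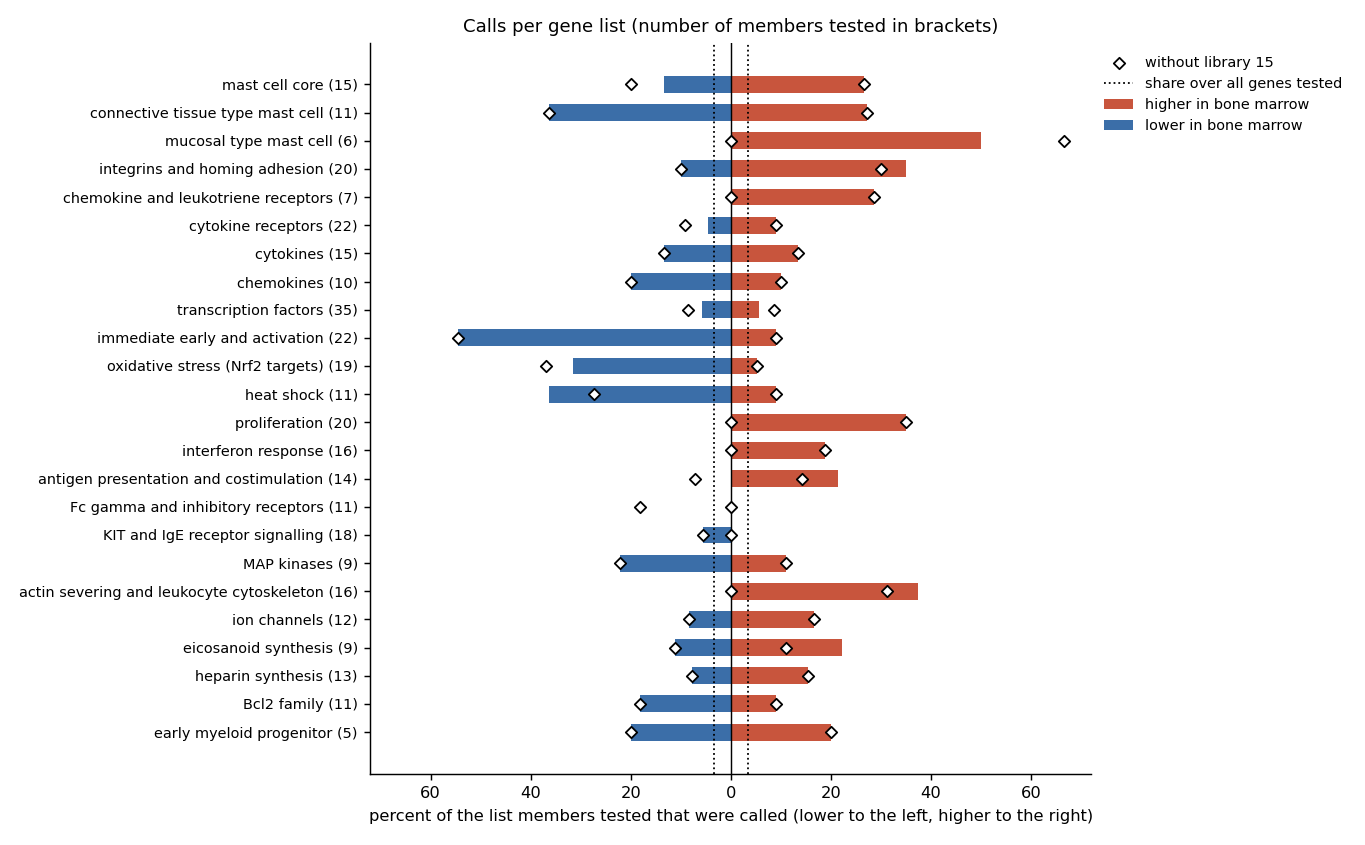
Percent of the tested members of each gene list that were called higher (red, to the right) or lower (blue, to the left) in bone marrow cells, with the number tested in brackets. Dotted lines give the shares over all genes tested (3.49% higher and 3.37% lower), and diamonds give the shares without library 15. Immediate early genes reach furthest to the left, with 12 of 22 lower. The adhesion share includes the sorting marker Itgb7.

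The mast cell core held both higher and lower genes, and 40% of its members were called, against 6.87% over all genes tested. Of 15 tested, 4 were higher, 2 lower and 9 not called, around a median log2 fold change of 0.08 (0.23 without library 15, which left 4 higher and 3 lower). Serglycin (Srgn), the granule proteoglycan, rose from 2558 ± 474 CPM (SD of 5 libraries) to 4951 ± 961 CPM (SD of 4). Bone marrow libraries 11, 13, 14 and 15 held 5653, 5131, 5471 and 3547 CPM of Srgn, all above the untreated range of 2184 to 3333 CPM (log2 difference 0.95 ± 0.190 SE, edgeR adjusted p = 0.00288). Tpsb2, a granule tryptase, rose from 12546 ± 961 to 21624 ± 3484 CPM with no overlap (log2 difference 0.79 ± 0.167, edgeR adjusted p = 0.00473). Its neighbour Tpsab1, at 4425 ± 576 and 5854 ± 360 CPM, did not overlap either but missed the threshold (edgeR adjusted p = 0.105). It was called higher in 4 alternatives (adjusted p from 0.00353 with limma to 0.0388 with a filter at 10 CPM), and reads shared by these similar genes would make both values uncertain. Cpa3, carboxypeptidase A3, was at 22038 ± 4515 and 34603 ± 8353 CPM (edgeR adjusted p = 0.0493), a call lost in 7 of 9 leave-one-out fits (adjusted p up to 0.153), with no minimum count (0.204) and with a gene length offset (0.123). Slc18a2, the transporter that loads histamine and serotonin into vesicles, fell from 787 ± 89.4 to 388 ± 152 CPM (log2 difference -1.02 ± 0.247, edgeR adjusted p = 0.0128). Hdc, which makes histamine, was at 10933 ± 1377 and 8712 ± 2652 CPM, Kit at 1662 ± 509 and 1177 ± 293 CPM, and Gata2, a mast cell transcription factor, at 2788 ± 348 and 2464 ± 815 CPM. None of these 3 was called, with edgeR adjusted p-values of 0.345, 0.289 and 0.684. Kit was called lower without untreated library 5, which held 786 CPM (log2 difference -0.69, edgeR adjusted p = 0.0396).

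The chains of the IgE receptor moved in opposite directions. Fcer1a, the α chain that binds IgE (GRCm38 chromosome 1, 173221284 to 173227214, minus strand), stood at 655, 727, 528, 665 and 1111 CPM in the untreated libraries and at 3999, 3171, 3023 and 2049 CPM in bone marrow libraries 11, 13, 14 and 15. Every bone marrow library lay above every untreated one, and the gene rose, with a log2 difference (bone marrow minus untreated) of 2.05 ± 0.232 (SE, edgeR adjusted p = 8.89e-06). Ms4a2, the β chain that amplifies the signal (chromosome 19, 11615523 to 11623719, minus strand), stood at 1657, 1753, 1810, 1743 and 2742 CPM in untreated and 730, 855, 800 and 529 CPM in bone marrow libraries. It fell by 1.41 ± 0.229 (SE) in log2 units, without overlap (edgeR adjusted p = 0.000421). Fcer1g, the signalling γ chain, was at 1641 ± 340 and 2001 ± 121 CPM and was not called (edgeR adjusted p = 0.377). In MC903 resident cells the means were 5715 CPM for Fcer1a, 1082 CPM for Ms4a2 and 2046 CPM for Fcer1g.

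Granule proteases of both mast cell types differed, and the 2 skin chymases did so in opposite directions. Of 11 connective tissue type genes tested, 3 were higher (Tpsb2, Cma1 and Ctsg) and 4 lower (Mcpt4, Mrgprb1, Mrgprx1 and Tpsg1), with a median log2 fold change of -0.29 (-0.17 without library 15, with the same counts). Of 6 mucosal type genes tested, 3 were higher (Mcpt1, Mcpt2 and Gzmb) and none lower, and without library 15 Itgae was called as a further one (edgeR adjusted p = 0.0382). Most of these proteases are neighbours on chromosome 14, where 13 tested genes from Cma1 to Gzmb span 321 kb (GRCm38, 55941451 to 56262260). In that locus 5 genes were higher, 1 lower and 7 not called, where 6.87% of all genes tested were called. Without library 15, and in other alternatives given with its values, Mcpt8 was called higher as well. The 13 genes together made up 4.07% of normalised counts in untreated resident cells, 6.79% in MC903 resident cells and 7.53% in bone marrow cells.

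At one end of the locus, Cma1 rose from 25838 ± 6600 to 52475 ± 8354 CPM. Its bone marrow libraries held 52850, 59520, 56890 and 40640 CPM, above the untreated range of 21610 to 37450 CPM (log2 difference 1.02 ± 0.173, edgeR adjusted p = 0.000651). Mcpt4 fell from 14045 ± 1153 to 8739 ± 1288 CPM, with 7057, 9575, 8423 and 9900 CPM in bone marrow and 13080 to 15960 CPM in untreated libraries (log2 difference -0.69 ± 0.150, edgeR adjusted p = 0.00626). Both differences had no overlap, and Mcpt4 missed the threshold only with limma among the alternatives (adjusted p = 0.051). In MC903 resident cells the means were 43595 CPM for Cma1 and 23672 CPM for Mcpt4, so the latter was above the untreated level there and below it in bone marrow cells. Ctsg, cathepsin G, was at 371, 422, 542, 347 and 659 CPM in untreated and at 2185, 2783, 2719 and 1253 CPM in bone marrow libraries (log2 difference 2.25 ± 0.251, edgeR adjusted p = 7.46e-06). Gzmb, granzyme B, a protease known best from cytotoxic lymphocytes, was at 127, 164, 197, 78.1 and 503 CPM in untreated and at 9797, 9245, 15280 and 4481 CPM in bone marrow libraries. All 4 bone marrow values of Gzmb lay far above the untreated ones (log2 difference 5.5 ± 0.789, edgeR adjusted p = 0.00113), and the MC903 resident mean was 227 CPM.

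The mucosal chymases split the bone marrow libraries. Mcpt1 stood at 1272, 1760, 1.06 and 6.57 CPM in libraries 11, 13, 14 and 15 against 0.677 to 1.61 CPM in untreated cells, so libraries 11 and 13 were high while library 14 lay within the untreated range. Its fold change was called (log2 9.41 ± 1.80, edgeR adjusted p = 0.00797), but not with limma and quality weights (adjusted p = 0.561) or when only the 2 groups were fitted (0.0612), and it was 8.58 without library 13. Mcpt2 was at 1938, 1476, 149.6 and 88.9 CPM in these 4 libraries, against 4.17 to 6.05 CPM in untreated cells. All 4 bone marrow libraries of Mcpt2 were above the untreated ones (log2 difference 7.45 ± 1.32, edgeR adjusted p = 0.00499), with an adjusted p of 0.21 under limma with quality weights and a log2 difference of 6.77 without library 11. Mcpt8, the basophil protease gene of the same locus, was at 976, 205, 83.2 and 46.5 CPM against 9.5 to 37.2 CPM, and was not called with all libraries (edgeR adjusted p = 0.0502). It was called higher without library 15 (0.026) or 14 (0.0439), and with all libraries under DESeq2 size factors (0.0467), a filter at 10 CPM (0.0192) and the DESeq2 Wald test (0.00048). Reads shared among the similar Mcpt genes would make their separate values uncertain.

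**Figure D4:**
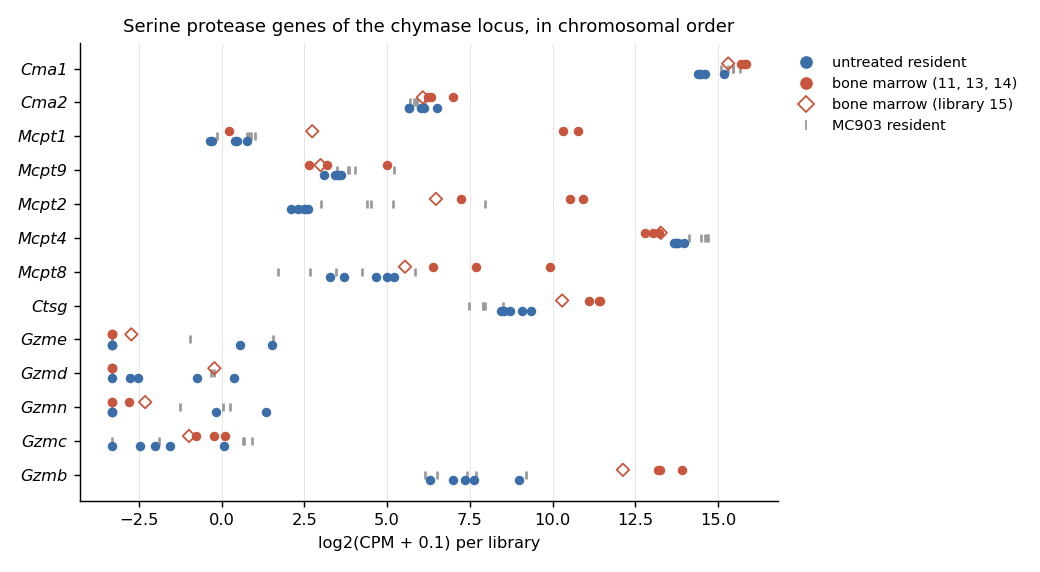
Level of the 13 tested protease genes of the chymase locus in chromosomal order, as log2(CPM + 0.1), with 1 mark per library (blue, untreated resident; red, bone marrow libraries 11, 13 and 14; open diamond, bone marrow library 15; grey ticks, MC903 resident). Mcpt1 and Mcpt2 spread widely within bone marrow cells, while Gzmb and Ctsg lie above both resident groups in all 4 libraries.

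The genes of Mas-related receptors were lower in part. Mrgprb1 fell from 2605 ± 400 to 385 ± 104 CPM, with bone marrow libraries at 351, 276, 390 and 523 CPM and untreated libraries at 1935 to 2925 CPM (log2 difference -2.76 ± 0.221, edgeR adjusted p = 3.56e-07). Mrgprx1 fell from 115 ± 30.2 to 7.26 ± 8.23 CPM (log2 difference -3.98 ± 0.607, edgeR adjusted p = 0.000452). Its bone marrow libraries 11, 13, 14 and 15 held 1.71, 5.92, 19.3 and 2.12 CPM, and without library 14 the log2 difference of Mrgprx1 was -5.13. Mrgprb2, at 538 ± 166 and 438 ± 111 CPM, was not called (edgeR adjusted p = 0.544). These genes are close copies of each other, and how shared reads were counted was not given in the sources used here.

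Adhesion genes rose in greater number than they fell. Of 21 integrin and homing genes, 20 were tested, 7 were higher (the sorting marker Itgb7 and 6 others) and 2 lower. That is 45% of those tested, Itgb7 included, against 6.87% over all genes tested. The median log2 fold change was 1.68, and without library 15 the counts were 6 and 2 with a median of 0.53. Itga4, which encodes the α4 chain that pairs with β7 or β1 (chromosome 2, 79255426 to 79333123, plus strand), stood at 14, 17.4, 12.7, 20.2 and 9.52 CPM in untreated and at 209, 246, 213 and 100 CPM in bone marrow libraries. The groups were far apart (log2 difference 3.70 ± 0.397, edgeR adjusted p = 4.75e-06), and the MC903 resident mean was 25.6 CPM. Selplg, the ligand of P-selectin, rose from 163 ± 56.9 to 570 ± 115 CPM (log2 difference 1.80 ± 0.266, edgeR adjusted p = 0.000154). Cd34, a sialomucin found on mast cells and progenitors, rose from 21.8 ± 8.29 to 137 ± 55.9 CPM (log2 difference 2.65 ± 0.362, edgeR adjusted p = 6.57e-05).

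The leukocyte integrin genes Itgb2 and Itgal were higher as well, at 20.1, 37.8, 33.1 and 241 CPM and at 5.17, 16.3, 6.76 and 24.8 CPM in libraries 11, 13, 14 and 15, with untreated means of 0.437 and 0.487 CPM. Library 15 was the highest in both. The Itgb2 call held without library 15 (log2 difference 6.06, edgeR adjusted p = 0.022, against 7.50 with it) and was lost in 3 fits that left out an untreated library (adjusted p up to 0.0639) and with no minimum count (0.0755). The Itgal call was lost in 5 of 9 leave-one-out fits, library 15 among them (edgeR adjusted p = 0.0646), and Itga5 was lost only without library 15 (0.0593). Without untreated library 3, the highest untreated library in both, the log2 difference was 8.84 for Itgb2 and 6.59 for Itgal, against 7.50 and 4.74. Itga2, a collagen-binding integrin chain, fell from 107 ± 37.1 to 30.6 ± 6.49 CPM (log2 difference -1.81 ± 0.281, edgeR adjusted p = 0.000258). Cadm1, an adhesion molecule with which mast cells attach to fibroblasts and nerves, was at 283, 289, 257, 268 and 278 CPM in untreated and at 19.8, 2.49, 0.255 and 1.26 CPM in bone marrow libraries. The untreated libraries were close to each other and all far above the bone marrow ones (log2 difference -5.53 ± 1.05, edgeR adjusted p = 0.00699), and the MC903 resident mean was 208 CPM. Library 11 was the highest bone marrow library, and without it the log2 difference of Cadm1 was -7.66.

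Among 14 chemokine and leukotriene receptor genes, 7 passed the filter on low counts, and 2 of these were higher with and without library 15. With all libraries, 28.6% of those tested were called higher, against 3.49% over all genes tested. Cx3cr1, the receptor of fractalkine, had no count in any untreated library and was at 25.4, 21.1, 6.97 and 2.98 CPM in libraries 11, 13, 14 and 15, at least 83.5-fold higher by a floor of 3 counts per library (edgeR adjusted p = 0.00425). Ltb4r1, a leukotriene B4 receptor, was also without counts in untreated cells and reached 0 to 6.1 CPM, a call lost in 6 of 9 fits that left out 1 library (edgeR adjusted p up to 0.071), with only the 2 groups (0.0535) and with limma (0.0821).

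Cytokine receptor genes were called in both directions. Of 23 listed, 22 were tested, 2 were higher (Il4ra and Il18rap) and 1 lower (Il10ra), which is 13.6% against 6.87% over all genes tested. The median log2 fold change was 0.10 (-0.09 without library 15), and Il6ra was called lower in addition without library 15 (edgeR adjusted p = 2.49e-06). Il4ra, the chain shared by interleukin 4 and 13 receptors, was at 160, 264, 363 and 400 CPM in libraries 11, 13, 14 and 15 and at 36.4 to 139 CPM in untreated cells (log2 difference 1.55 ± 0.305, edgeR adjusted p = 0.00252). Il18rap, a chain of the interleukin 18 receptor, rose from 0.181 ± 0.259 to 18.8 ± 13.5 CPM (log2 difference 6.64 ± 1.47, edgeR adjusted p = 0.00662), and the log2 difference was 7.90 without untreated library 5. Il1rl1, the interleukin 33 receptor, was at 654 ± 142 and 690 ± 176 CPM (log2 difference 0.08 ± 0.229, edgeR adjusted p = 0.9), and its MC903 resident mean was 1144 CPM.

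Of 15 cytokine genes tested out of 17 listed, 2 were higher and 2 lower, which is 26.7% against 6.87% over all genes tested. The counts were the same without library 15. Lif, a cytokine of the interleukin 6 family, stood at 651, 769, 150 and 285 CPM in libraries 11, 13, 14 and 15 against 17.8 to 49.2 CPM in untreated cells (log2 difference 3.75 ± 0.489, edgeR adjusted p = 0.000135). Vegfa, an angiogenic factor, was at 52.9 ± 12.9 and 150.0 ± 48.6 CPM (edgeR adjusted p = 0.0217), a call lost in 4 of 9 fits that left out 1 library (up to 0.0646). Tnf fell from 499 ± 105 to 162 ± 38.2 CPM (log2 difference -1.62 ± 0.221, edgeR adjusted p = 6.7e-05) and Csf1, the macrophage growth factor, from 809 ± 230 to 196 ± 72.3 CPM (log2 difference -2.04 ± 0.284, edgeR adjusted p = 8.06e-05), neither with overlap. Il6 was at 671 ± 223 and 528 ± 75.9 CPM and Il13 at 50.6 ± 14.2 and 30.1 ± 10.7 CPM, and neither was called.

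Of 13 chemokine genes 10 were tested, with 1 higher and 2 lower, which is 30% against 6.87% over all genes tested. Without library 15 the counts stayed the same. Ccl7, a monocyte attractant, was at 21300, 22510, 22610, 21990 and 34640 CPM in untreated and at 2816, 1880, 1459 and 4534 CPM in bone marrow libraries. It fell by 3.20 ± 0.293 (SE) in log2 units, without overlap (edgeR adjusted p = 9.06e-07). Its neighbour Ccl2 fell less, from 3010 ± 450 to 1775 ± 456 CPM (edgeR adjusted p = 0.024), and its call was lost without bone marrow library 11, 13 or 14 (up to 0.0856). Ccl9 was at 35.1, 15.5, 38.5 and 623 CPM in libraries 11, 13, 14 and 15 and at most 2.27 CPM in untreated cells, with a log2 fold change of 8.15 (edgeR adjusted p = 0.017) that was 5.56 without library 15 (0.0185). The Ccl9 call was lost when only the 2 groups were fitted (edgeR adjusted p = 0.0585). Without untreated library 4 its log2 difference was 9.62. Ccl4 was at 810, 1184, 1097 and 1069 CPM in bone marrow and at 270, 19.4, 6.58, 3.21 and 210 CPM in untreated libraries, without overlap, and was not called (edgeR adjusted p = 0.197). Ccl3 was likewise without overlap and not called (edgeR adjusted p = 0.175), while limma with quality weights called both (adjusted p of 0.00135 for Ccl4 and 0.00408 for Ccl3) and the DESeq2 Wald test Ccl4 (0.0256).

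Immediate early genes, which cells switch on within minutes of a stimulus, were lower in bone marrow cells in most cases. Of 22 tested, 12 were lower, 2 higher and 8 not called, so 63.6% were called against 6.87% over all genes tested. The median log2 fold change was -1.24, and without library 15 the counts were the same and the median -1.12. Klf6 fell from 5357 ± 469 to 917 ± 223 CPM (log2 difference -2.55 ± 0.231, edgeR adjusted p = 9.06e-07), with bone marrow libraries at 1199, 986, 701 and 782 CPM and untreated libraries at 4654 to 5921 CPM. Egr1 fell from 6134 ± 1236 to 1176 ± 548 CPM and Egr3 from 406 ± 20.8 to 100.5 ± 29.3 CPM, both without overlap. Myc, a driver of cell growth, was at 176, 98.1, 81.9, 156 and 180 CPM in untreated and at 29.0, 24.5, 21.5 and 28.4 CPM in bone marrow libraries (log2 difference -2.42 ± 0.341, edgeR adjusted p = 9.5e-05). Its MC903 resident mean was lower still, at 9.89 CPM.

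Of the NR4A nuclear receptor genes, Nr4a3 fell from 793 ± 152 to 208 ± 49.7 CPM (log2 difference -1.93 ± 0.207, edgeR adjusted p = 4.75e-06) and Nr4a2 from 620 ± 98.0 to 159.8 ± 82.1 CPM (log2 difference -1.96 ± 0.309, edgeR adjusted p = 0.000313). Fosb, Jun and Junb, which encode parts of the factor AP-1, fell by 1.17, 1.31 and 0.87 on the log2 scale, and Junb lost its call without untreated library 2 (edgeR adjusted p = 0.05) or bone marrow library 11 (0.0593), and with limma (0.068). The Jun call was lost with no minimum count (0.0567). Egr2, Cd69 and Atf3 were called lower too, and their calls were lost in 6, 2 and 8 of 9 leave-one-out fits (edgeR adjusted p up to 0.096, 0.0698 and 0.112). With no minimum count all 3 were lost (0.0875, 0.126 and 0.155), with only the 2 groups Egr2 (0.121) and Atf3 (0.163), and with DESeq2 size factors Atf3 (0.0677). The log2 difference of Egr2 was -3.56, and -4.41 without library 15. Library 15 held 716 CPM of Atf3, against 102 to 162 CPM in libraries 11, 13 and 14. Without library 15 its log2 fold change was -3.02 (edgeR adjusted p = 1.08e-06), against -1.89 with it. The exceptions were Btg2, an antiproliferative gene, and Ier3. Btg2 was at 125, 416, 418 and 179 CPM in libraries 11, 13, 14 and 15 and at 0 to 1.87 CPM in untreated cells (log2 difference 8.30 ± 1.42, edgeR adjusted p = 0.00385). Ier3 rose from 746 ± 170 to 1712 ± 335 CPM (log2 difference 1.2 ± 0.205, edgeR adjusted p = 0.000699).

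The promoters of Nr4a2, which fell, and Btg2, which rose, are shown because both hold the letters TGACG, the core of the site of the stimulus-responsive factor CREB, although the genes moved in opposite directions. The sequences are the 250 bases before the start of each gene in RefSeq (GRCm38.p6), 5′ to 3′ on the gene's strand, with matches to TGACG on either strand in capitals.
Nr4a2 (chr2:57124004-57124253, minus strand): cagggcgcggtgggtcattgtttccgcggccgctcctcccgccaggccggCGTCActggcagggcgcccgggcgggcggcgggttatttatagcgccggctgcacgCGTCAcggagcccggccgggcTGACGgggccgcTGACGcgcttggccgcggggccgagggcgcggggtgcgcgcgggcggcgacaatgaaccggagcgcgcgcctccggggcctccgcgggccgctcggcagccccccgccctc
Btg2 (chr1:134079156-134079405, minus strand): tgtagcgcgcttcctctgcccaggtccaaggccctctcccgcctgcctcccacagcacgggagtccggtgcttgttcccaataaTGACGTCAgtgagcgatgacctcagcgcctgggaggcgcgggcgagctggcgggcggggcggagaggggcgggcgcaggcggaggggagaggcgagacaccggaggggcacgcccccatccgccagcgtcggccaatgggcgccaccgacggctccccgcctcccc
The Nr4a2 window held 4 matches, and the Btg2 window held 2 that overlap as a palindrome. Of the 16 immediate early genes with a promoter in the table, 10 had a match, Btg2 among them. A match was found in 19.8% of the 27025 genes with such a window, 26.9% of the 13317 of them that were tested, 36.8% of the 535 called lower and 28.0% of the 560 called higher. These are descriptions of letters and show no binding.

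Transcription factors of the mast cell lineage and related families were called in both directions. Of 37 listed, 35 were tested, 2 were higher and 2 lower, which is 11.4% against 6.87% over all genes tested, with a median log2 fold change of -0.02. Without library 15, 3 were higher and 3 lower, at the same median. Klf2, a factor of quiescent cells, fell from 1048 ± 399 to 116 ± 71.2 CPM (log2 difference -3.17 ± 0.513, edgeR adjusted p = 0.00134), while its MC903 resident mean was 933 CPM. Klf4 fell from 108 ± 18.9 to 26.7 ± 16.8 CPM (log2 difference -2.02 ± 0.406, edgeR adjusted p = 0.00307). Bhlhe40, a factor of activated lymphocytes, rose from 134 ± 39.0 to 436 ± 68.5 CPM (log2 difference 1.71 ± 0.290, edgeR adjusted p = 0.000671). Mitf, a master factor of mast cells, was at 120 ± 25.2 and 72.7 ± 9.0 CPM with no overlap and an edgeR adjusted p of 0.0554. It was called lower in 4 alternatives, with adjusted p from 0.00639 (DESeq2 Wald test) to 0.0401 (edgeR without untreated library 5).

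Targets of NRF2, the factor that switches on defences against oxidants, were lower in part. Of 19 tested, 6 were lower, 1 higher and 12 not called, so 36.8% were called against 6.87% over all genes tested. The median log2 fold change was -1.03 (-1.18 without library 15, with 7 lower). Srxn1, sulfiredoxin, was at 1303, 612, 1145, 1304 and 1146 CPM in untreated and at 24, 170, 110 and 120 CPM in bone marrow libraries. It fell by 3.38 ± 0.555 (SE) on the log2 scale (edgeR adjusted p = 0.0016), and its MC903 resident mean was 75.9 CPM. Osgin1 fell from 51.7 ± 37.6 to 1.14 ± 1.12 CPM and Gclc, of glutathione synthesis, from 47.7 ± 18.2 to 12.7 ± 4.90 CPM. The log2 difference of Osgin1 was -5.50, and -6.18 without library 15. Sqstm1, an autophagy receptor, fell from 8268 ± 887 to 3655 ± 694 CPM (log2 difference -1.18 ± 0.228, edgeR adjusted p = 0.00222), and the ferritin genes Ftl1 and Fth1 fell by 1.03 and 1.01. Fth1 overlapped through library 15 (4141 CPM, against 1402 to 2059 CPM elsewhere), and its call was lost without library 11, 13 or 14 (edgeR adjusted p up to 0.067), with no minimum count (0.15) and with only the 2 groups (0.0596). Hmox1, haem oxygenase 1, depended on library 15, with 11.8, 17.4, 26.4 and 724 CPM in libraries 11, 13, 14 and 15 and 45.7 to 104 CPM in untreated cells. It was not called with all libraries (log2 difference 1.58, edgeR adjusted p = 0.429) and was lower without library 15 (-1.81, 0.00526). Txn1, thioredoxin, rose from 167 ± 36.7 to 308 ± 73.6 CPM (log2 difference 0.89 ± 0.203, edgeR adjusted p = 0.00879).

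The Srxn1 promoter is shown for its copies of TGANTCA, the site of AP-1, which is its own reverse complement apart from the open base. Only some of the elements that NRF2 binds contain these letters. The window and source are as above, with matches in capitals.
Srxn1 (chr2:152105274-152105523, plus strand): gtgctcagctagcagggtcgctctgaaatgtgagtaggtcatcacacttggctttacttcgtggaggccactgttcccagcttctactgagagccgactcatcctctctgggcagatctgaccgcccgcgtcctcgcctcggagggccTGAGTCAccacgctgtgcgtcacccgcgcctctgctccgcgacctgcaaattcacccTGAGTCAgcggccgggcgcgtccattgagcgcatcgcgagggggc
It held 2 matches, which describe letters and are not a count of NRF2 sites. Of 15 NRF2 targets with a promoter in the table, 3 had a match (Srxn1, Osgin1 and Prdx1), against 7.8% of all genes with such a window, 6.4% of those tested and 8.4% of those called lower.

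Among 11 tested heat shock genes of 12 listed, 4 were lower and 1 higher, which is 45.5% against 6.87% over all genes tested. Without library 15, 3 were lower and 1 higher. Dnajb1, a cofactor of HSP70, fell from 626 ± 81.4 to 143 ± 45.7 CPM (log2 difference -2.13 ± 0.282, edgeR adjusted p = 4.88e-05). Bag3 fell from 218 ± 41.6 to 57.2 ± 8.92 CPM (log2 difference -1.93 ± 0.210, edgeR adjusted p = 5.42e-06) and Hspa8 from 2365 ± 407 to 1381 ± 124 CPM. Hsp90aa1 and Hspe1 were called lower and higher, and each call was lost in 5 or more of the 9 fits that left out 1 library (edgeR adjusted p up to 0.0842 and 0.141). Library 15 was among the losses for Hsp90aa1 (0.0776 without it). The Hspe1 call was also lost with no minimum count (0.0679), with only the 2 groups (0.0837) and with a gene length offset (0.0708). Of 11 tested genes of the Bcl2 family, which sets cell survival, 2 were lower and 1 higher, also without library 15. With all libraries this was 27.3%, against 6.87% over all genes tested. Mcl1, a survival factor, was at 556, 1054, 1434, 1470 and 1458 CPM in untreated and at 334, 221, 176 and 197 CPM in bone marrow libraries (log2 difference -2.36 ± 0.311, edgeR adjusted p = 4.7e-05). Pmaip1, the death-promoting factor NOXA that binds MCL1, fell from 46.2 ± 20.6 to 1.21 ± 0.950 CPM (log2 difference -5.24 ± 0.830, edgeR adjusted p = 0.000315). Bax was at 44.3 ± 4.58 and 77.0 ± 8.49 CPM with no overlap, and its call (edgeR adjusted p = 0.0322) was lost in 5 of 9 fits that left out 1 library (up to 0.0826), with no minimum count (0.201), with only the 2 groups (0.0595) and with a gene length offset (0.0875).

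Several proliferation genes were higher in bone marrow cells. Of 20 tested, 7 were higher and none lower, so 35% were called higher against 3.49% over all genes tested. The median log2 fold change was 2.79 (2.95 without library 15, with the same counts). Among them were 4 genes of the MCM helicase, which opens DNA for replication. Mcm6 was at 45.0, 31.0, 15.8, 55.3 and 47.0 CPM in untreated and at 194, 249, 285 and 178 CPM in bone marrow libraries, with no overlap (log2 difference 2.54 ± 0.346, edgeR adjusted p = 6.45e-05). Mcm2 rose from 20.7 ± 12.8 to 139 ± 38.0 CPM, Mcm5 from 11.3 ± 2.97 to 79.1 ± 52.1 CPM and Mcm3 from 71.7 ± 15.8 to 149.6 ± 31.4 CPM. Mki67, a marker of cycling cells, was at 149, 46.3, 177 and 143 CPM in bone marrow and at 68.1, 3.35, 12.9, 23.3 and 7.34 CPM in untreated libraries. It overlapped and was not called (edgeR adjusted p = 0.0996), but it was called higher without untreated library 1, which held 68.1 CPM (0.0105). With all libraries, Mki67 was called higher under a filter at 10 CPM (adjusted p = 0.049), the DESeq2 Wald test (0.0174) and limma (0.0118). Top2a, Plk1 and Rrm2 were called higher, with calls lost in 5, 6 and 2 of the 9 fits that left out 1 library (edgeR adjusted p up to 0.0908, 0.106 and 0.0565). With no minimum count their adjusted p was 0.104, 0.153 and 0.077, with only the 2 groups 0.155, 0.121 and 0.0961, and limma also ended the Plk1 call (0.294). Their log2 differences of 3.45, 5.79 and 5.62 became 4.49 and 7.38 without untreated library 1 (Top2a and Plk1), 2.67 without library 14 (Top2a), 5.09 without library 11 (Plk1) and 6.79 without untreated library 2 (Rrm2). Pcna, the replication clamp, was at 217 ± 85.6 and 113 ± 10.9 CPM and was not called (edgeR adjusted p = 0.0617). Pcna was called lower in 6 alternatives (adjusted p from 0.0161 with the DESeq2 Wald test to 0.0428 with DESeq2 size factors in edgeR), with log2 fold changes of -1.06 to -0.91.

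The Mcm6 promoter is shown for its 2 pairs of matches to TTNGCGC, the letters of the site of the E2F factors that time replication genes, searched on both strands. The window and source are as above. Each capital run holds 2 overlapping matches, 1 on each strand.
Mcm6 (chr1:128359706-128359955, minus strand): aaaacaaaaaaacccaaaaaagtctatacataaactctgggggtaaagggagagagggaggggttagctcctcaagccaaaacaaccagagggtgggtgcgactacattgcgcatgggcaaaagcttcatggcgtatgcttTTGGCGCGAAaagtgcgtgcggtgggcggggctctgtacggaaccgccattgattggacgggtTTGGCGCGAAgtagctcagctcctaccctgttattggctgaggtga
Of 17 proliferation genes with a promoter in the table, 5 had a match, against 6.0% of all genes with such a window, 9.0% of those tested, 8.8% of those called higher and 12% of those called lower.

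Of 16 interferon response genes, 3 were higher and none lower, so 18.8% were called higher against 3.49% over all genes tested. The median log2 fold change was 1.74 (1.36 without library 15, with the same counts). Ifitm3, an antiviral membrane protein, was at 108, 130, 76.0 and 281 CPM in libraries 11, 13, 14 and 15 and at most 1.96 CPM in untreated cells (log2 difference 7.01 ± 1.02, edgeR adjusted p = 0.00082). Its neighbour Ifitm2 rose from 148 ± 22.1 to 394 ± 78.7 CPM and Isg15 from 13.8 ± 5.37 to 82.1 ± 13.1 CPM, both without overlap. Of 15 antigen presentation and costimulation genes, 14 were tested and 3 were higher (Cd74, Cd83 and H2-DMb1), with a median log2 fold change of 3.77. The share called higher was 21.4%, against 3.49% over all genes tested. The H2-DMb1 call was lost without library 13 (edgeR adjusted p = 0.0646) and with no minimum count (0.0602). Without library 15, 2 were higher and 1 lower (Ciita, the regulator of class II genes, edgeR adjusted p = 0.0483), and the median was 0.36. Cd74, the chaperone of class II molecules, was at 7.93, 5.65, 45.3 and 2712 CPM in libraries 11, 13, 14 and 15 and at 1.53 to 10.7 CPM in untreated cells, and its call was lost in 6 of 9 leave-one-out fits, those without library 15 (edgeR adjusted p = 0.137) or any 1 untreated library (0.0723 to 0.0887). It was also lost with no minimum count (0.0681), with only the 2 groups (0.145) and with limma (0.352). Cd83 was at 18.6, 19.3, 28.9 and 512 CPM in these 4 libraries, and untreated cells did not exceed 1.35 CPM. Its call held without library 15 at a smaller size (log2 difference 5.84, edgeR adjusted p = 0.0199, against 8.51 with it) and its log2 difference was 10.04 without untreated library 3. None of 11 Fc gamma and inhibitory receptor genes was called with all libraries by edgeR. Without library 15, which held 599 CPM of Fcgr2b and 810 CPM of Fcgr3, both were lower (log2 fold changes -2.20 and -0.95, edgeR adjusted p = 4.28e-05 and 0.00644), and limma with quality weights called both lower with it (adjusted p of 0.00109 for Fcgr2b and 0.0311 for Fcgr3). The Fcgr2b product is the inhibitory IgG receptor of mast cells.

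Of 16 genes of actin severing and the leukocyte cytoskeleton, 6 were higher and none lower. This is 37.5% called higher, against 3.49% over all genes tested. The median log2 fold change was 0.68 (0.65 without library 15, with 5 higher). Scin, which encodes the actin-severing protein scinderin, was at 491, 678, 642 and 220 CPM in libraries 11, 13, 14 and 15 and at 0.204 to 1.56 CPM in untreated cells. Gsn, gelsolin of the same family, rose from 212 ± 33.0 to 597 ± 68.6 CPM (log2 difference 1.5 ± 0.198, edgeR adjusted p = 4.88e-05). Coro1a, coronin 1A, rose from 159 ± 29.9 to 599 ± 99.7 CPM (log2 difference 1.91 ± 0.215, edgeR adjusted p = 8.41e-06). Marcks was called only with library 15, where it was at 48.0 CPM (log2 difference 2.93 and edgeR adjusted p = 0.107 without it, against 4.10), and Flii lost its call without library 13 (0.0548).

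Channel, lipid mediator and heparin genes held single large changes. With all libraries, 25% of the ion channel, 33.3% of the eicosanoid, 23.1% of the heparin and 33.3% of the MAP kinase genes were called. Over all genes tested the share was 6.87%. Of 12 ion channel genes, 2 were higher and 1 lower, with and without library 15. Kcnn4, a calcium-activated potassium channel, rose, and Grik2, a glutamate receptor subunit, fell. Trpv2, a cation channel, rose from 90.1 ± 18.3 to 190 ± 80.2 CPM, a call lost without library 13 (edgeR adjusted p = 0.073). Of 9 eicosanoid genes, 2 were higher and 1 lower (1 and 1 without library 15). Alox5ap, the partner of 5-lipoxygenase in leukotriene synthesis, was at 76.5, 115, 108 and 200.1 CPM in libraries 11, 13, 14 and 15 and at 9.84 to 17.0 CPM in untreated cells (log2 difference 3.22 ± 0.47, edgeR adjusted p = 0.000129). Alox5 itself was at 4.17 ± 4.68 and 107 ± 42.5 CPM, a call (edgeR adjusted p = 0.0474) lost in 8 of 9 fits that left out 1 library (up to 0.112, and 0.0551 without library 15), with no minimum count (0.126), with only the 2 groups (0.124) and with a gene length offset (0.0506). Hpgds, the prostaglandin D2 synthase of mast cells, fell from 486 ± 58.0 to 229 ± 78.0 CPM (log2 difference -1.09 ± 0.240, edgeR adjusted p = 0.00646). Among 13 genes of heparin and serglycin, 2 were higher and 1 lower with and without library 15. Hs3st1, a 3-O-sulfotransferase, rose from 172 ± 51.4 to 698 ± 178 CPM (log2 difference 2.02 ± 0.254, edgeR adjusted p = 2.86e-05), Srgn rose as given above, and Hs2st1, a 2-O-sulfotransferase, fell from 197 ± 23.4 to 85.1 ± 20.3 CPM (log2 difference -1.21 ± 0.225, edgeR adjusted p = 0.00152). Among 9 tested MAP kinase genes, Mapk3 was higher, and Mapk12 and Map2k3 were lower, with and without library 15, the last called in 7 of 9 fits that left out 1 library.

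Fyn, the kinase gene below the IgE receptor, fell from 247 ± 39.7 to 106 ± 43.4 CPM (log2 difference -1.22 ± 0.260, edgeR adjusted p = 0.00472). Of 8 early myeloid progenitor genes, 5 were tested, with Cd34 higher and Ly6a lower both with and without library 15. With all libraries this was 40%, against 6.87% over all genes tested. Ly6a, the stem cell antigen Sca-1, fell from 678 ± 233 to 241 ± 77.9 CPM (log2 difference -1.49 ± 0.288, edgeR adjusted p = 0.00215), while its MC903 resident mean was 994 CPM. The progenitor granule genes Mpo, Elane and Prtn3 did not pass the filter on low counts.

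The largest changes were taken as the 12 highest and 12 lowest fold changes among genes called with and without library 15, without overlap, with 20 CPM or more on average in the higher group. In that set 463 genes were higher and 457 lower. Scin, Cd83, Kcnn4, Btg2, Ccl9, Spns3, Bmp7, Itgb2, Serpina3g, Mcpt2, Mcub and Ifitm3 had the largest increases. Kcnn4 was at 243, 303, 188 and 118 CPM in libraries 11, 13, 14 and 15 and at 0.0565, 0, 0, 0.189 and 2.94 CPM in untreated libraries. Its log2 difference was 8.37, and 11.73 without untreated library 5. Scin (9.65 with all libraries) was at 10.32 without the same library. Spns3, a sphingolipid transporter relative, was at 98.9, 139, 101 and 50.2 CPM and at most 0.734 CPM in untreated cells (log2 difference 8.11 ± 1.11, edgeR adjusted p = 0.000289). Bmp7, a secreted growth factor, was at 80.4, 24.3, 28.4 and 19.5 CPM against at most 0.531 CPM (log2 difference 7.57 ± 1.14, edgeR adjusted p = 0.000183), with 8.36 without untreated library 2 and 6.91 without library 11. Serpina3g, a protease inhibitor, rose from 0.287 ± 0.400 to 50.4 ± 24.6 CPM (log2 difference 7.47 ± 1.0, edgeR adjusted p = 9.52e-05) and had an MC903 resident mean of 22.1 CPM, and its log2 difference was 8.44 without untreated library 1. Mcub, a subunit of the mitochondrial calcium channel, was highest in library 15 (90.2 CPM, against 4.68 to 24 CPM), with a log2 fold change of 7.16 that was 5.78 without it.

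Lrrc66, Aard, Mapk12, Bex4, Grik2, Nr3c2, Sgcd, Necab2, Pcp4l1, Lmo3, Mst1r and Colec11 had the largest decreases. Mapk12, the stress kinase p38γ (chromosome 15, 89130584 to 89140703, minus strand), stood at 149, 110, 103, 116 and 87.2 CPM in untreated and at 0.0835, 0, 0.425 and 0.808 CPM in bone marrow libraries (log2 difference -8.47 ± 0.766, edgeR adjusted p = 1.43e-06). Its MC903 resident mean was 46.4 CPM. Colec11, a secreted lectin, was at 127, 202, 231, 176 and 274 CPM in untreated and at 3.42, 0.0693, 5.44 and 0 CPM in bone marrow libraries. Bex4 was at 107 to 204 CPM and at 0.0835, 0, 0 and 1.97 CPM, and Mst1r, the receptor of macrophage-stimulating protein, at 39.7 to 130 CPM and at 0, 1.04, 1.36 and 0.707 CPM. Nr3c2, the mineralocorticoid receptor, fell from 21 ± 9.51 to 0.0718 ± 0.0956 CPM. In several of these genes library 15 held the highest of the few bone marrow counts, and without it the log2 fold changes were larger, as in Bex4 (-12.33 against -8.41), Sgcd (-12.38 against -7.69), Grik2 (-10.40 against -8.23), Lmo3 (-9.29 against -7.01), Necab2 (-9.55 against -7.49), Lrrc66 (-12.00 against -10.46), Nr3c2 (-9.34 against -8.17) and Mapk12 (-9.40 against -8.47). Without library 13 the values were -11.19 against -7.39 for Pcp4l1 and -9.86 against -9.15 for Aard, and without library 14 -7.42 against -6.50 for Colec11.

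**Figure D5:**
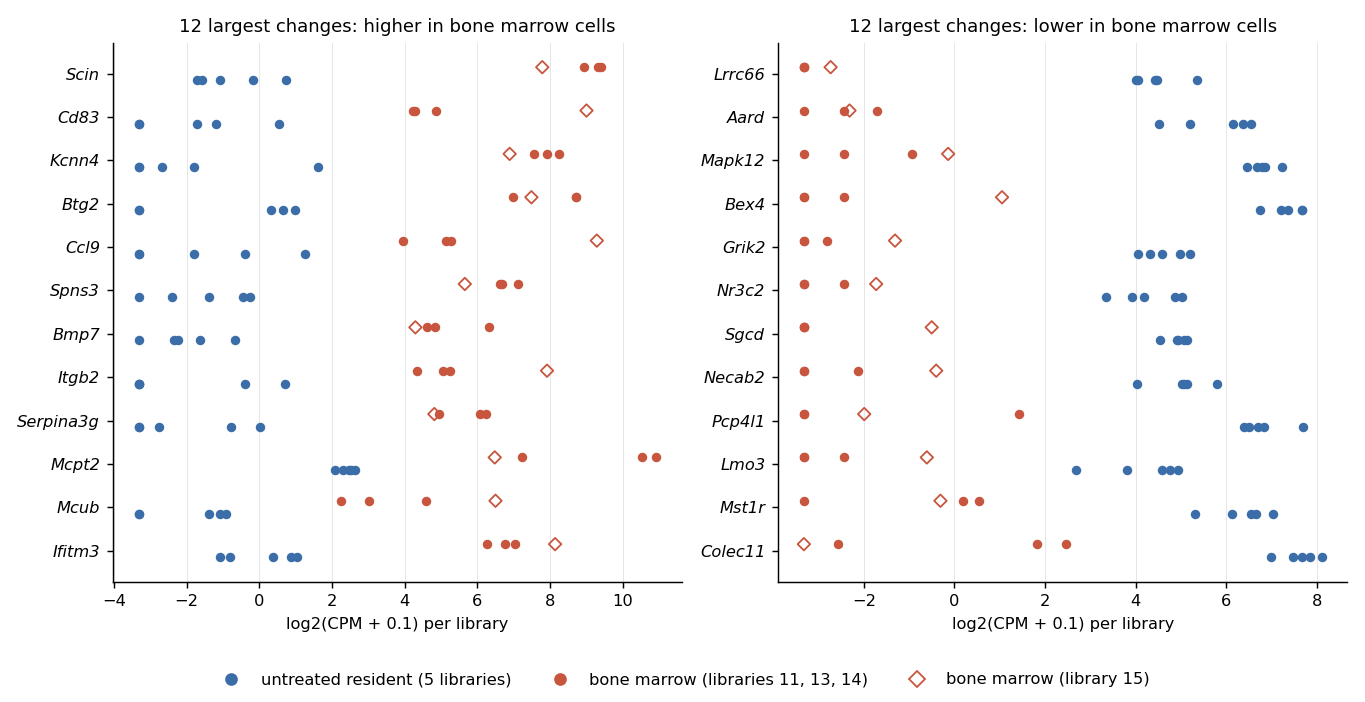
Level of the 24 genes with the largest changes in each library, as log2(CPM + 0.1), with 1 point per library (blue, untreated resident; red, bone marrow libraries 11, 13 and 14; open diamond, bone marrow library 15). The groups do not overlap in any of them, by the rule that chose them, and among the 12 genes higher in bone marrow cells, library 15 is the highest bone marrow library in Cd83, Ccl9, Itgb2, Mcub and Ifitm3.

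Among genes that averaged 500 CPM or more in the higher group, the 8 largest increases were in Scin, Mcpt2, Gzmb, Ctla2a, Mxd1, Ctsg, Fcer1a and Hs3st1. Ctla2a, a cysteine protease inhibitor, was at 1175, 2301, 956 and 611 CPM in libraries 11, 13, 14 and 15 and at 131 to 227 CPM in untreated cells (log2 difference 2.75 ± 0.296, edgeR adjusted p = 4.77e-06), with an MC903 resident mean of 1013 CPM. Mxd1, a factor that competes with MYC for its partner MAX, rose from 114 ± 50.6 to 706 ± 313 CPM (log2 difference 2.63 ± 0.300, edgeR adjusted p = 1.02e-05). The 8 largest decreases were in Fam110c, Egr2, Pmp22, Srxn1, P2ry10b, Ccl7, Klf2 and Gnai1. Fam110c was at 980, 544, 621, 728 and 660 CPM in untreated and at 0.918, 26.8, 23.5 and 13.9 CPM in bone marrow libraries (log2 difference -5.44 ± 0.757, edgeR adjusted p = 0.000652). Pmp22, a membrane protein of myelin, fell from 1676 ± 273 to 145 ± 76.4 CPM (log2 difference -3.53 ± 0.291, edgeR adjusted p = 3.56e-07). P2ry10b, a lipid receptor relative, fell from 756 ± 204 to 76.7 ± 16.2 CPM, with an MC903 resident mean of 112 CPM. Gnai1, an inhibitory G protein subunit, fell from 557 ± 108 to 63.9 ± 26.4 CPM, with an MC903 resident mean of 383 CPM.

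Some genes were at or under the floor of 3 counts in every library of one group. This held for 34 genes called higher, in untreated libraries, and for 43 called lower, in bone marrow libraries. Gpr176, an orphan receptor gene chosen here after its values were seen, had no count in untreated cells and was at 14.5, 24.2, 12.8 and 15.5 CPM in bone marrow libraries, at least 98.9-fold higher (edgeR adjusted p = 4.89e-05). Fgf12, chosen in the same way, had no count in bone marrow cells and was at 19.3, 12.6, 12.7, 11.3 and 18.8 CPM in untreated libraries, at least 98.6-fold lower (edgeR adjusted p = 2.05e-06). The MC903 resident means were 7.46 and 12.5 CPM. Lrrc66 was at 15.9 to 40.8 CPM in untreated cells and had at most 1 count per bone marrow library, at least 154-fold lower.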

How the data were processed

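RNA of small pools of sorted mouse mast cells was made into SMART-Seq HT and Nextera XT libraries, per the labels' protocols. The deposited table holds raw counts per gene for 14 libraries. STAR, featureCounts and mm10 are named in the submitters' processing notes, and versions, annotation and strand setting were not given in the sources used here. Of 55487 gene identifiers, 55094 were in GENCODE M21 (GRCm38) with the same version and coordinates, and 55394 had a symbol. No column of counts was left unused (0).

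Library sizes were full totals with TMM factors. Genes passed edgeR's filterByExpr (minimum count 10, minimum total 15), and all 14 libraries in 3 groups were fitted with edgeR 4.0.16 (robust quasi-likelihood, R 4.3.3). Genes were called at a Benjamini-Hochberg adjusted p under 0.05 over all genes tested. Alternatives used DESeq2 1.42.0, limma 3.58.1 with quality weights, other filters and size factors, a gene length offset, the 2 groups alone, and each library left out in turn.

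The genes named were the 12 highest and 12 lowest fold changes among called genes without overlap, called also without library 15, at a mean of at least 20 CPM and 10 counts in each library of the higher group. Predicted, clone and mitochondrial genes were left out. The 8 highest and lowest at a mean of at least 500 CPM, and members of gene lists, were added. The comparison and the lists were chosen with earlier results of these data known. Reads carried no molecular identifiers here, so floors of 3 counts cover counting error only. Promoters are RefSeq's.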

Additional observations from a re-analysis of the deposited data

Results flagged for a closer look

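A value was picked out where the highest or lowest library of a group lay further from its neighbour than Dixon's test allows at 95%. This was so for 26 of 290 groups tested, and chance alone gives about 1 in 20.

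Untreated library 5 was the most frequent among the untreated. It was high in Kcnn4 (2.94 CPM, others 0 to 0.189), Ccl7 (34640 CPM), Ms4a2 (2742 CPM), Cma1 (37450 CPM), Ccl2 (3806 CPM), Sqstm1 (9817 CPM) and H2-DMb1 (36.0 CPM). It was low in Kit (786 CPM), Itga5 (19.9 CPM), Il4ra (36.4 CPM) and Trpv2 (58.5 CPM). Library 1 was high in Bhlhe40 (202 CPM) and library 2 low in Srxn1 (612 CPM). Library 3 was low in Cd34 (7.70 CPM) and high in Itgal (1.91 CPM).

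Bone marrow library 15 was high in Cd83 (512 CPM, others 18.6 to 28.9), Fcgr3 (809.5 CPM), Lrrc66 (0.0505 CPM), Bex4 (1.97 CPM), Grik2 (0.303 CPM) and Sgcd (0.606 CPM), and low in Bag3 (43.9 CPM). Library 13 was high in Pcp4l1 (2.56 CPM) and Pcna (129 CPM) and low in Mki67 (46.3 CPM), and library 14 was low in Gsn (495 CPM).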

How the results depend on the processing

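The DESeq2 Wald test called 2757 genes (1287 higher, 1470 lower) and limma with quality weights 2212 (1088 higher, 1124 lower), against 1443 with edgeR. Leaving out each library in turn gave 1084 to 1624 called genes, 539 to 841 of them higher and 542 to 872 lower. With each library left out, the log2 difference ranged from -0.294 to 0.035 for Gata2, from -0.062 to 0.229 for Il1rl1 and from -1.806 to 1.978 for Hmox1. The direction turned for Gata2 without library 15 (0.035 on the log2 scale), for Il1rl1 without untreated library 2 (-0.005) or 5 (-0.010) or bone marrow library 11 (-0.062), and for Hmox1 with limma (-1.149) and without library 15 (-1.806). Of 142 genes followed, 97 kept their direction and side of the threshold in every alternative run. The cause of these shifts was not tested. No paired analysis was possible because the library numbers run in 1 series over the groups, which share none, and the labels name no animal. Depth limits genes near 3 counts per library.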

Other observations

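Genes of cytosolic ribosomal proteins, the structural parts of the ribosome, were looked at after their values were seen. Of 81 tested, 66 were higher in bone marrow cells and none was lower (0), with a median log2 fold change of 1.05. Over all genes tested, 3.49% were higher and 3.37% lower. Without library 15, 70 were higher and the median was 1.16. With an offset for gene length, 62 were called and the median was 0.97.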
